A study of Mus musculus with 9 samples.

Results

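Progesterone leaves the steroid pathway when its 20-keto group is reduced, when its ring is reduced at the 5α position, or when its products are further reduced or conjugated. Enzymes of these steps, of other steroids and of the same families were followed here as 8 genes. These were Akr1c18, Akr1c14, Akr1b7, Srd5a1, Srd5a3, Hsd11b1, Hsd11b2 and Sult1e1. They were chosen by name under the heading of progesterone and steroid breakdown, and each had 1 entry among the 46078 genes of the count table. The filter on low counts left 16722 genes, including 7 of the 8. Sult1e1 did not pass it.

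RNA was taken from the whole ovary of 5 WT mice and of 4 ERβKO mice (KO in the labels), all of strain C57BL/6J, with 1 library per replicate. ERβKO mice lack exon 3 of Esr2, the gene of estrogen receptor β (ERβ), in the germline, after a cross of floxed mice to a Rosa26-Cre deleter, so the deletion is in every tissue. WT mice were offspring without Cre. The labels give both groups as untreated, while a protocol attached to all of these samples describes diets and ligand injections, and which mice of the study these were is not given beyond the label. Mice were 4 to 20 weeks old across all experiments, and the ovaries were collected at no set stage of the estrous cycle. In whole ovaries, fewer cells of a type and less RNA per cell cannot be told apart.

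In the rodent corpus luteum, Akr1c18 encodes 20α-hydroxysteroid dehydrogenase, which turns progesterone into a product with little progestin activity. Prolactin holds this enzyme down while the corpus luteum functions, and prostaglandin F2α raises it as the corpus luteum regresses, so that the transcript is known as a mark of luteal regression. The mouse ovary forms new corpora lutea in each cycle and keeps older ones for some time. Srd5a1 and Akr1c14 act in sequence on progesterone and testosterone, by 5α-reduction and then 3α-reduction. Hsd11b1 and Hsd11b2 interconvert active and inactive glucocorticoids, and Sult1e1 sulfates estrogens.

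The counts of a WT library summed to 12353740 to 16519975 fragments and those of an ERβKO library to 13088728 to 18717510. Levels are given as the authors' FPKM (fragments scaled for gene length and for mapped fragments), which can be compared between genes. Fold changes are ERβKO over WT on the log2 scale, with their standard error (SE), from edgeR's quasi-likelihood test on the counts. A gene was called when its Benjamini-Hochberg adjusted p over all tested genes was under 0.05, its log2 fold change was beyond 0.4 in either direction, and either genotype had a mean above 1 FPKM. By this rule 287 genes were called (1.72% of those tested), of which 153 were higher in ERβKO (0.915%) and 134 lower (0.801%). Esr2 over its whole length, remaining exons included, lay between 12.4 and 23.9 FPKM in WT and between 10.5 and 23.7 FPKM in ERβKO ovaries, so its level does not check the labels. Nothing states that the replicates differ in litter or day, and the p-values measure the spread between these samples.

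Of the 7 tested enzymes 0 were called, against 1.72% of all tested genes. None had an unadjusted p under 0.05 in edgeR, a threshold passed by 19.8% of all tested genes (9.81% higher and 10.0% lower in ERβKO). DESeq2, which called 4.8% of all tested genes (2.24% higher and 2.56% lower), also called 0 of the 7. The WT and ERβKO ranges overlapped for each of the 7 tested enzymes. This is a description only, as the share of overlapping genes among all tested genes is not given here. The intervals of the differences were of very unequal width, as Akr1c18 varied far more between ovaries of 1 genotype than between the genotypes, while Srd5a3 varied little.

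**Figure D1:**
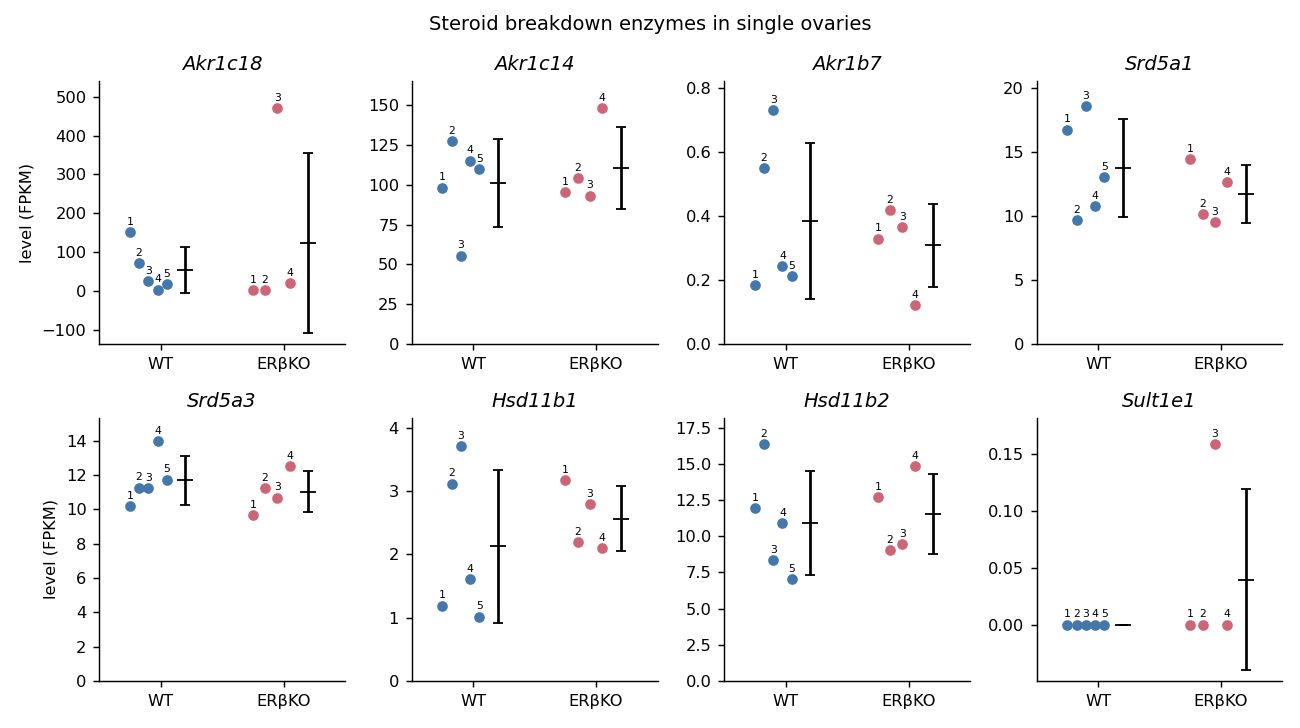
Level in FPKM (vertical axes, each panel with its own scale) of the 8 enzymes in 5 WT (blue) and 4 ERβKO (red) ovaries; each point is 1 ovary marked with its replicate number, and the bar is the mean ± SD, which for Akr1c18 and Sult1e1 reaches below 0. The genotypes overlap in every panel, and ERβKO replicate 3 stands at 471 FPKM of Akr1c18, above the other 8 ovaries.

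Akr1c18 (ENSMUSG00000021214) lies on chromosome 13 of GRCm38 from 4132615 to 4150654, on the minus strand. Akr1c14 (ENSMUSG00000033715), a gene of the same enzyme family, lies on chromosome 13 from 4049011 to 4090422 on the plus strand. The 250 bases before the RefSeq start of each gene (GRCm38.p6, 5′ to 3′ on the strand of the gene) are shown because these genes of 1 chromosome and family, the most abundant of the 8 enzymes by mean, had very different spreads. Capitals mark the letters TATAA.

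Akr1c18, chr13:4150647-4150896, minus strand: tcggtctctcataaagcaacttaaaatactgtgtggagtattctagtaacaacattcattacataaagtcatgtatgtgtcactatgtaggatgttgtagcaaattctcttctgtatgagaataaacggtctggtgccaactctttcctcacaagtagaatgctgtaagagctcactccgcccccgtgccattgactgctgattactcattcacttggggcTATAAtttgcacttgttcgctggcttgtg

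Akr1c14, chr13:4059341-4059590, plus strand: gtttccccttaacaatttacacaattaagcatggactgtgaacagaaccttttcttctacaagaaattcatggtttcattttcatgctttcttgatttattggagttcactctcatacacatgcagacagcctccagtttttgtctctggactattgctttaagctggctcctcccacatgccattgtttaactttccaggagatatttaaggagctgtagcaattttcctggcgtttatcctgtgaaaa

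TATAA, searched on both strands, begins 29 bases before the start of Akr1c18 and is also in the Sult1e1 window. It is held by 22.8% of 32851 windows of this length. AAGGTCA, the core that NR5A receptors such as LRH-1 bind, was found in the windows of Akr1b7 and Sult1e1 and in 4.08% of all windows. The full estrogen response element, GGTCANNNTGACC, was found in 0.0639% of all windows and in none of the 7 available here, as Hsd11b2 had no entry. These are matches of letters only.

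Akr1c18 was at 150.6, 70.8, 26.0, 3.27 and 18.2 FPKM in WT replicates 1 to 5. In ERβKO replicates 1 to 4 it was at 1.29, 2.71, 471 and 19.4 FPKM. A single ovary was thus very high in ERβKO, and the other 3 were below the WT median of 26.0 FPKM. The highest ovary was 46.1-fold above the lowest in WT and 366-fold in ERβKO. ERβKO replicate 3 held 95.3% of the Akr1c18 signal summed over its genotype, and WT replicate 1 held 56.0%. The counts behind these levels ran from 38 to 10219 fragments, so that counting error was small beside the spread between ovaries.

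WT ovaries had a mean Akr1c18 level of 53.8 ± 59.7 FPKM (SD, n = 5), and ERβKO ovaries one of 123.7 ± 231.9 FPKM (SD, n = 4). The log2 fold change was 1.23 (SE 1.43, 95% interval −1.93 to 4.39, edgeR adjusted p = 0.677). Without ERβKO replicate 3 ERβKO ovaries averaged 7.80 ± 10.1 FPKM (SD, n = 3), and edgeR gave a log2 fold change of −2.78. Tests on log2 FPKM gave the opposite sign to edgeR, at −0.83 with a pseudocount of 1 and −1.03 with 0.1 by limma. Akr1c18 was called under 0 of the 18 alternatives, and its direction is not determined by these ovaries.

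**Figure D2:**
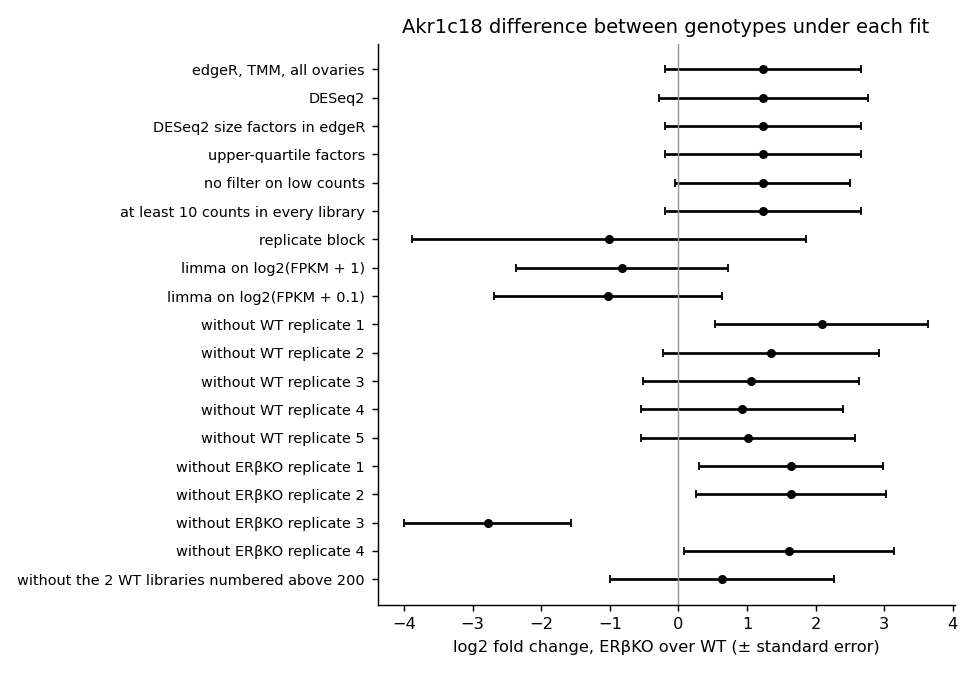
Log2 fold change of Akr1c18, ERβKO over WT (horizontal axis), with its standard error (bars), in edgeR on all 9 ovaries (top) and under each of 18 alternatives. The value is 1.23 in the first fit, −2.78 without ERβKO replicate 3 and 2.09 without WT replicate 1.

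The spread of Akr1c18 within genotypes stood out among all genes. Its SD of log2 CPM (counts scaled to a common library size, prior count 2) around the genotype means was 2.93, against a median of 0.199 and a 95th percentile of 0.674 over the 16722 tested genes. None of these genes had a larger value, and the next was Onecut2 at 2.89. On log2(FPKM + 1) its SD was 2.72, which ranked 2 of 16722, behind Malat1. Without ERβKO replicate 3 its SD of log2 CPM was 2.05 and ranked 14 of 16722, and without any other ovary it ranked 1 or 2. These checks of the spread were chosen after seeing the data. The other tested enzymes were less variable, with Akr1b7 at the percentile 95.5 of this SD, Hsd11b1 at 90.5, Akr1c14 at 80.3, Hsd11b2 at 79.5, Srd5a1 at 73.3 and Srd5a3 at 39.5.

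The main genes of progesterone synthesis varied less between ovaries than Akr1c18. Hsd3b1, which makes progesterone from pregnenolone, lay between 1514 and 3494 FPKM in WT and between 1643 and 1740 FPKM in ERβKO. Cyp11a1, which cleaves the cholesterol side chain, lay between 872 and 1865 FPKM in WT and between 608 and 1088 FPKM in ERβKO, with the highest ERβKO value in replicate 3. Star, which carries cholesterol into mitochondria, was at 217, 73.8, 185, 187 and 324 FPKM in WT and at 66.5, 34.9, 85.4 and 26.7 FPKM in ERβKO. ERβKO replicate 3 was thus the highest of its genotype in Star and Cyp11a1 as well as in Akr1c18. Hsd3b1 was highest in ERβKO replicate 4, at 1740 FPKM against 1694 FPKM in replicate 3. In WT the highest ovary was replicate 5 for Star and Hsd3b1. It was replicate 1 for Akr1c18 and for Cyp11a1, the latter at 1865 FPKM against 1851 FPKM in replicate 5.

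Set against Hsd3b1 in the same ovary, the Akr1c18 level was 4.86, 4.68, 1.13, 0.145 and 0.522% in WT. In ERβKO it was 0.0784, 0.163, 27.8 and 1.11%. The log2 ratio differed by −0.52 from WT to ERβKO (n = 5 and 4; p = 0.778 and adjusted over both ratios 0.921 by a two-sided exact permutation test). Against Cyp11a1 the level ran from 0.293 to 8.12% in WT and from 0.189 to 43.3% in ERβKO, a log2 difference of −0.24 (two-sided exact permutation test, n = 5 and 4, p = 0.921, adjusted 0.921). The smallest p that such a test allows here is 0.0159. Both differences were far smaller than the spread between ovaries, and both turned sign when ERβKO replicate 1 was left out, to 0.59 and 0.85.

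The receptors through which prolactin and prostaglandin F2α act on luteal cells were measured in the same ovaries. Prlr, the prolactin receptor, was at 69.6, 30.8, 36.5, 48.3 and 86.4 FPKM in WT and at 24.4, 18.8, 35.8 and 30.3 FPKM in ERβKO. Ptgfr, the prostaglandin F2α receptor, was at 39.5, 22.4, 19.8, 24.1 and 40.0 FPKM in WT and at 4.01, 1.22, 29.9 and 11.2 FPKM in ERβKO. Lhcgr, the luteinizing hormone receptor, was at 114.7, 79.1, 37.9, 156 and 248 FPKM in WT and at 21.7, 99.97, 197 and 111.3 FPKM in ERβKO. The ERβKO ovary with the highest Akr1c18 had the highest level of all 3 receptors in its genotype, and the pair with the lowest Akr1c18, replicates 1 and 2, had the lowest Ptgfr. That ERβKO ovary, replicate 3, was also the highest of its genotype in Cyp17a1, a theca marker, at 472 FPKM. The same held for the granulosa markers Inha (590 FPKM), Cyp19a1 (29.4 FPKM) and Foxl2 (3.60 FPKM). It did not hold for Fshr, Amh, Inhba, Inhbb, Nr5a2, Hsd17b1, Aldh1a1, Ptch1 or Gli1. In WT, replicate 4, with the lowest Akr1c18, was at the WT median of Ptgfr and Prlr and below only replicate 5 in Lhcgr.

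**Figure D3:**
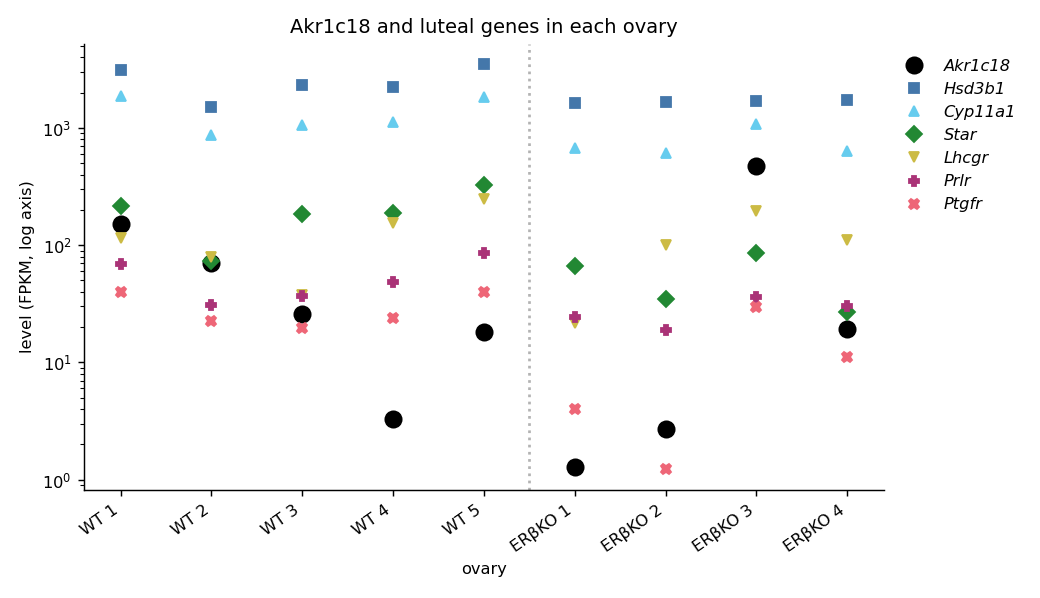
Level in FPKM (vertical log axis) of Akr1c18 (black circles) and 6 luteal genes in each of 5 WT and 4 ERβKO ovaries (horizontal axis); each symbol is 1 ovary. Akr1c18 runs from 1.29 to 471 FPKM, while Hsd3b1 stays between 1514 and 3494 FPKM.

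None of the 8 genes of progesterone synthesis was called by edgeR. At an unadjusted p under 0.05, 4 were lower in ERβKO, against 10.0% of all tested genes. DESeq2 called 3 lower (Star, Cyp11a1 and Fdxr), against 2.56%. The list had 7 lower estimates of 8 and a median log2 fold change of −0.65, against −0.00089 over all tested genes. Star had the largest change of the list, at −1.91 (SE 0.45, edgeR adjusted p = 0.0573). Among 8 genes of prolactin and prostaglandin F2α signalling edgeR called 0, with 2 lower at an unadjusted p under 0.05 (all tested genes, 10.0%), and DESeq2 called 1 lower, the prolactin target Cish. The 8 luteal markers, of which 4 are also in the synthesis list and 2 in the signalling list, all had lower estimates (median −0.89). Of these edgeR called 0, with 4 lower at an unadjusted p under 0.05 (all tested genes, 10.0%), and DESeq2 called 2 (Star and Cyp11a1). Their summed level was 3056 to 6707 FPKM in WT and 2579 to 3598 FPKM in ERβKO. Hsd3b1 and Cyp11a1 made up most of this sum. Whether the amount of luteal tissue has a part in the levels of Akr1c18 was not tested.

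Akr1c14, 3α-hydroxysteroid dehydrogenase, was abundant in every ovary. It was at 98.2, 127.5, 55.5, 115.1 and 109.8 FPKM in WT and at 95.5, 104.0, 93.2 and 148 FPKM in ERβKO. Apart from the low WT replicate 3, the ovaries of both genotypes covered about the same range. The means were 101.2 ± 27.6 FPKM (SD, n = 5) and 110.2 ± 25.7 FPKM (SD, n = 4), with a log2 fold change of 0.094 (SE 0.22, 95% interval −0.40 to 0.58, edgeR adjusted p = 0.853). The order of Akr1c18 and Akr1c14 differed between ovaries, as Akr1c18 was the higher in WT replicate 1 and ERβKO replicate 3 only. Of the exon bases of Akr1c14, 7.22% overlap Gm18857 on the same strand.

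Srd5a1 (chromosome 13, 69573449 to 69611442), the 5α-reductase of most tissues outside the male tract, was at 16.8, 9.67, 18.6, 10.8 and 13.1 FPKM in WT. In ERβKO ovaries it was at 14.4, 10.1, 9.54 and 12.6 FPKM. All ERβKO values were near or within the WT range, and the log2 fold change was −0.28 (SE 0.20, 95% interval −0.72 to 0.17, edgeR adjusted p = 0.475). This was the lowest unadjusted p of the 7 enzymes, at 0.196 in edgeR. Akr1c14 exceeded Srd5a1 by 2.99- to 13.2-fold in WT and by 6.62- to 11.7-fold in ERβKO ovaries. Gm17108 covers 16.4% of the exon bases of Srd5a1 on the same strand, so that part of its reads cannot be assigned to either.

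Srd5a3 (chromosome 5, 76140271 to 76155504) carries the family name but reduces polyprenol to dolichol for protein glycosylation. It was at 10.2, 11.3, 11.2, 14.0 and 11.7 FPKM in WT and at 9.68, 11.2, 10.7 and 12.5 FPKM in ERβKO. It was the least variable of the group, and the log2 fold change of −0.054 (SE 0.11) had a 95% interval of −0.29 to 0.18 (edgeR adjusted p = 0.816). The interval lies within the study's limit of 0.4 in either direction. In the list of 5α-reductase relatives and dolichol synthesis, edgeR and DESeq2 called 0 of 7 tested genes. At an unadjusted p under 0.05 edgeR had 1 gene of this list lower, where 10.0% of all tested genes were. Tecr, an enoyl reductase of fatty acid elongation and the most abundant of them, had a log2 fold change of 0.0092 (SE 0.11, edgeR adjusted p = 0.971), and Dhdds, which builds the dolichol chain, −0.037 (SE 0.061, edgeR adjusted p = 0.781).

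Akr1b7 (chromosome 6, 34412334 to 34423142), an aldose reductase-like enzyme known from the adrenal cortex and vas deferens, was near the limit of detection. It was at 0.18, 0.55, 0.73, 0.24 and 0.21 FPKM in WT and at 0.33, 0.42, 0.37 and 0.12 FPKM in ERβKO, on 3 to 21 fragments per library. The log2 fold change was −0.37 (SE 0.50, 95% interval −1.48 to 0.73, edgeR adjusted p = 0.720). Its mean was under the study's minimum of 1 FPKM in both genotypes, so that it could not be called at any p. On the opposite strand, Gm13857 overlaps 27.2% of its exon bases, and no source says that strand was used in counting. The WT ovary with the most Akr1b7, replicate 3, also had 4.58 FPKM of Cyp11b1, the adrenal 11β-hydroxylase, against at most 0.314 FPKM in the other 8 ovaries. The adrenal markers summed to 5.18 FPKM there and to 0.151 to 0.676 FPKM in the other WT ovaries and to at most 1.41 FPKM in ERβKO, with Cyp21a1 and Cyp11b2 at or near 0 in all. The part of adrenal tissue in the Akr1b7 level was not tested.

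In the wider aldo-keto reductase family, edgeR and DESeq2 called 0 of 9 tested genes, with 1 gene higher at an unadjusted p under 0.05 in edgeR (all tested genes, 9.81%). The other 4 listed genes, Akr1c6, Akr1c20, Akr1c21 and Akr1d1, were too low to test. The most abundant member of the family was Akr1cl, at 894 to 1416 FPKM in WT and 1102 to 1477 FPKM in ERβKO, with a log2 fold change of 0.13 (SE 0.15, edgeR adjusted p = 0.665). Of the 50-base stretches of Akr1c18, 0.608% are also in Akr1cl. Akr1a1, an aldehyde reductase, lay between 173 and 199.8 FPKM in all 9 ovaries, with a log2 fold change of −0.096 (SE 0.071, edgeR adjusted p = 0.489).

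Hsd11b2 (chromosome 8, 105518746 to 105523984), which inactivates glucocorticoids, exceeded Hsd11b1 (chromosome 1, 193221634 to 193264075), which reactivates them, in every ovary. Hsd11b2 was at 11.9, 16.4, 8.35, 10.9 and 7.03 FPKM in WT and at 12.7, 9.04, 9.46 and 14.9 FPKM in ERβKO. Hsd11b1 was at 1.19, 3.12, 3.72, 1.61 and 1.02 FPKM in WT and at 3.18, 2.19, 2.79 and 2.10 FPKM in ERβKO. The ratio of Hsd11b2 to Hsd11b1 was 2.25 to 10.0 in WT and 3.39 to 7.07 in ERβKO. The ERβKO ratios lay inside the WT range. The log2 fold change was 0.043 for Hsd11b2 (SE 0.23, 95% interval −0.47 to 0.55, edgeR adjusted p = 0.938) and 0.23 for Hsd11b1 (SE 0.33, 95% interval −0.49 to 0.95, edgeR adjusted p = 0.738).

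Among 7 genes of glucocorticoid action, edgeR called 1 lower, against 0.801% of all tested genes. It was Sgk1, a kinase gene induced by corticoids and by other signals. Sgk1 was at 122, 58.5, 50.1, 103 and 185 FPKM in WT and at 18.2, 20.5, 37.3 and 24.5 FPKM in ERβKO. The ERβKO ovaries all lay below the lowest WT ovary, and the log2 fold change was −2.06 (SE 0.40, edgeR adjusted p = 0.0343). The call was kept in 10 of 18 alternatives, with adjusted p from 0.000551 (DESeq2) to 0.122, and in 3 of the 9 fits that left out 1 ovary. Without ERβKO replicate 2 its adjusted p was 0.118. Tsc22d3, another gene induced by glucocorticoids, lay between 14.0 and 21.3 FPKM in WT and between 19.8 and 22.5 FPKM in ERβKO, with a log2 fold change of 0.13 (SE 0.10, edgeR adjusted p = 0.527). DESeq2 called Sgk1 lower (all tested genes, 2.56%) and Zbtb16 higher (all tested genes, 2.24%). At an unadjusted p under 0.05 edgeR had 2 higher, Nr3c2 and Zbtb16 (all tested genes, 9.81%), and 1 lower, Sgk1 (all tested genes, 10.0%). Of the 7 genes 6 had higher estimates, and Sgk1 was the only lower one.

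Sult1e1 (chromosome 5, 87575969 to 87591594), estrogen sulfotransferase, was at the floor of the data. No fragment was counted in the 5 WT libraries, which over their 72601629 fragments allows up to 0.0413 CPM (3 fragments over the group). In ERβKO replicates 1 to 4 the counts were 0, 2, 4 and 2. These counts are too few for a level or a test. The sulfotransferase that was well detected was Sult1a1, which sulfates phenols and also estrogens.

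Sult1a1 was at 9.08, 9.10, 9.76, 11.8 and 9.90 FPKM in WT and at 19.5, 17.0, 19.8 and 19.9 FPKM in ERβKO. The genotypes did not overlap, and the log2 fold change was 0.94 (SE 0.094, 95% interval 0.73 to 1.14, edgeR adjusted p = 0.00262). It was called in all 18 alternatives. Papss2, which makes the sulfate donor PAPS, was at 15.75, 15.61, 15.01, 15.64 and 17.9 FPKM in WT and at 20.9, 36.0, 37.9 and 37.7 FPKM in ERβKO. Its log2 fold change was 1.03 (SE 0.16, 95% interval 0.66 to 1.39, edgeR adjusted p = 0.0151), and it was called in 14 of 18 alternatives. Of the 9 fits that left out 1 ovary 7 called it. It was not called without ERβKO replicate 2 (edgeR adjusted p = 0.0594) or without ERβKO replicate 4 (edgeR adjusted p = 0.0545). Other alternatives also lost the call, and over the 18 edgeR, DESeq2 and limma alternatives its adjusted p reached 0.0814. Papss1, the other PAPS synthase, lay between 20.1 and 21.3 FPKM in WT and between 22.2 and 24.8 FPKM in ERβKO, a log2 fold change of 0.15 (SE 0.052, edgeR adjusted p = 0.165) that was not called although the genotypes did not overlap.

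**Figure D4:**
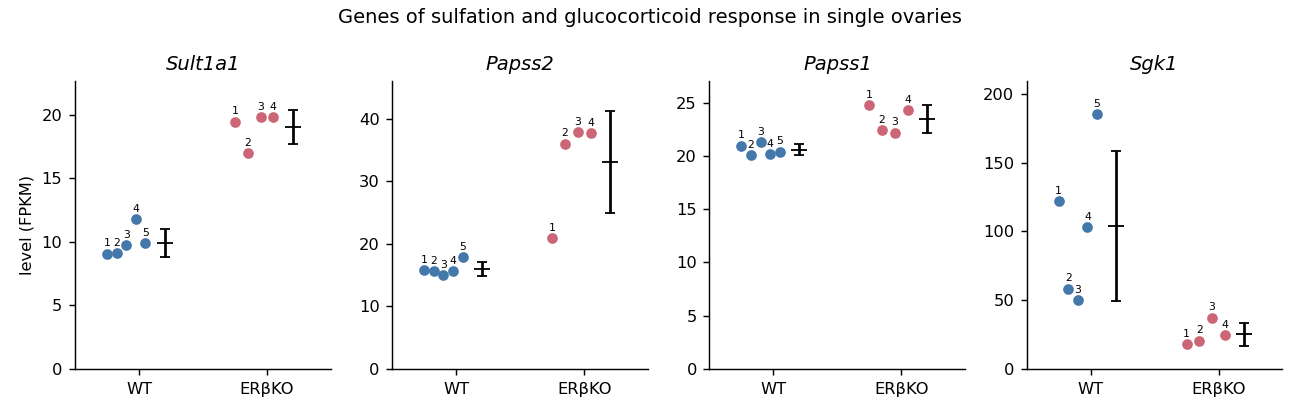
Level in FPKM (vertical axes from 0, each panel with its own scale) of Sult1a1, Papss2, Papss1 and Sgk1 in 5 WT (blue) and 4 ERβKO (red) ovaries; each point is 1 ovary marked with its replicate number, and the bar is the mean ± SD. Sult1a1 is at 9.08 to 11.8 FPKM in WT and 17.0 to 19.9 FPKM in ERβKO, and ERβKO replicate 1 is the lowest of its genotype for Papss2 at 20.9 FPKM.

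Over the conjugation list of 14 genes, 9 were tested and 2 rose (Sult1a1 and Papss2), 0 fell and 7 were not called. DESeq2 called the same 2 (all tested genes, 2.24% higher). At an unadjusted p under 0.05 edgeR had 3 higher, Sult1a1, Papss1 and Papss2 (all tested genes, 9.81%), and 0 lower (all tested genes, 10.0%). Over all tested genes 0.915% were called higher. In the estrogen inactivation list edgeR and DESeq2 called 0 of 6 tested genes, and edgeR had 1 higher at an unadjusted p under 0.05, where 9.81% of all tested genes were. Cyp1b1, which hydroxylates estrogens, had a log2 fold change of 0.33 (SE 0.15, edgeR adjusted p = 0.262).

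**Figure D5:**
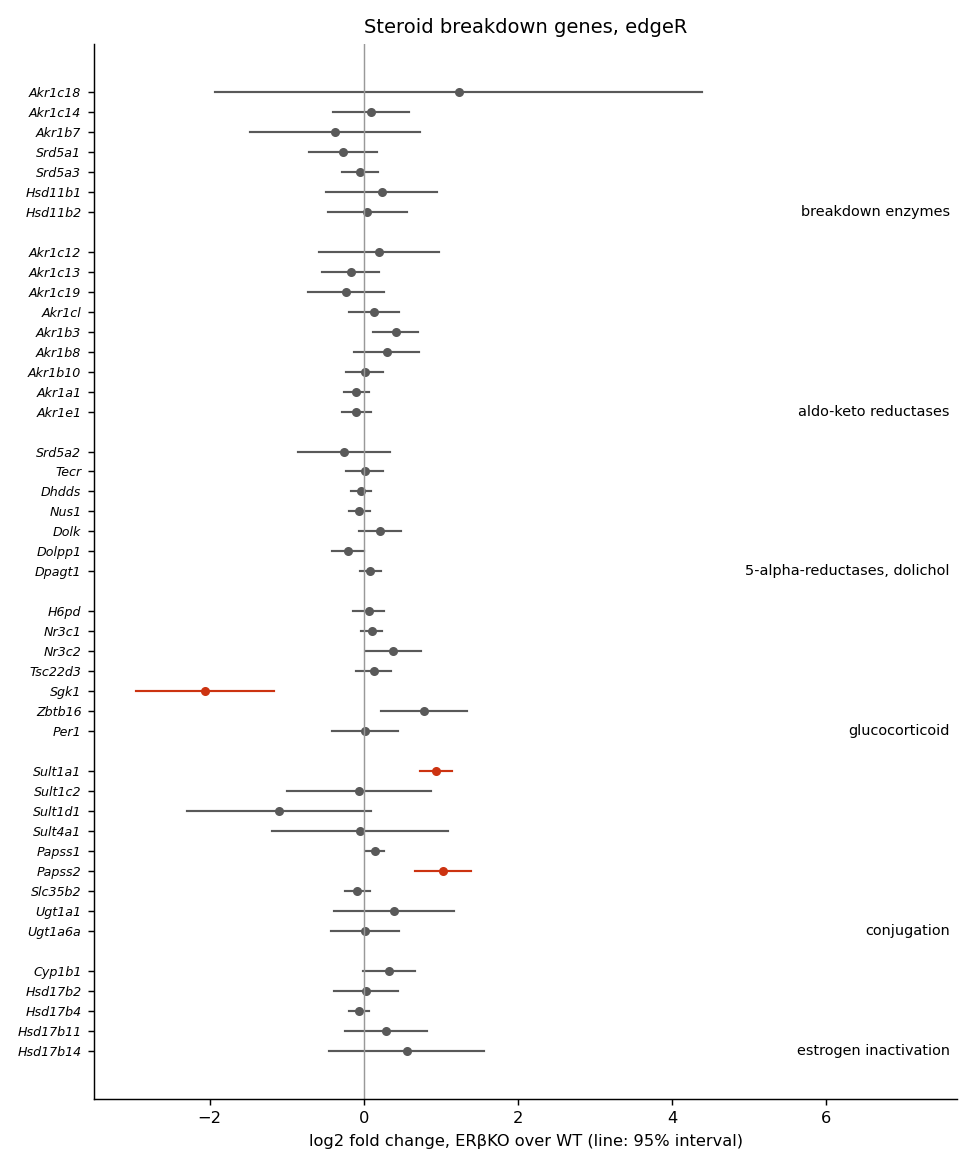
Log2 fold change, ERβKO over WT (horizontal axis), with its 95% interval (lines), of the tested enzymes (top group) and of the tested genes of 5 related lists, less 1 gene that is not reported here; red marks genes called by edgeR. Sult1a1 at 0.94 and Papss2 at 1.03 lie above 0 and Sgk1 at −2.06 below, while the interval of Akr1c18 runs from −1.93 to 4.39.

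Some markers of granulosa and theca cells also differed between the genotypes, while most markers of other cells were not called. Of the 9 granulosa markers edgeR called 2 higher in ERβKO, against 0.915% of all tested genes. All 9 had higher estimates, with a median log2 fold change of 0.71 against −0.00089 over all tested genes. At an unadjusted p under 0.05 edgeR had 4 higher (all tested genes, 9.81%). DESeq2 called the same 4, Fshr, Inha, Inhbb and Hsd17b1 (all tested genes, 2.24% higher). Inhbb had a log2 fold change of 1.09 (edgeR adjusted p = 0.00883) and was called in all 18 alternatives. Hsd17b1 had one of 0.77 (edgeR adjusted p = 0.0363). It was called in 9 of 18 alternatives and in 2 of the 9 fits that left out 1 ovary. The summed level of the 9 markers was 542 to 679 FPKM in WT and 740 to 1014 FPKM in ERβKO. Inha made up most of this sum, at 336 to 399 FPKM in WT and 387 to 590 FPKM in ERβKO. Of 4 tested theca markers 1 was called higher, Aldh1a1 at 1.05, against the same 0.915%. Its edgeR adjusted p was 0.0139, and it was called in 14 of 18 alternatives. At an unadjusted p under 0.05 edgeR had 2 of the 4 higher, Cyp17a1 and Aldh1a1 (all tested genes, 9.81%). The summed level of the theca list was 464 to 727 FPKM in WT and 835 to 1716 FPKM in ERβKO. Most of this sum was Aldh1a1 itself, at 424 to 620 FPKM in WT and 761 to 1276 FPKM in ERβKO. The others were not called: Cyp17a1 at 2.35 (edgeR adjusted p = 0.205), Gli1 at 0.12 (0.748) and Ptch1 at 0.033 (0.933). Insl3 was too low to test. The 6 adipocyte markers all had higher estimates, of which edgeR called 0, with 6 higher at an unadjusted p under 0.05 (all tested genes, 9.81%), and DESeq2 called 3 (all tested genes, 2.24% higher). Their summed level was 92.5 to 193 FPKM in WT and 104 to 331 FPKM in 3 of the ERβKO ovaries, but 794 FPKM in ERβKO replicate 1. Without that ovary edgeR still called Sult1a1 and Papss2 but no longer Sgk1 (log2 fold change −1.93, edgeR adjusted p = 0.0669). In the lists of oviduct, surface epithelium, macrophages, oocytes and adrenal cortex edgeR and DESeq2 called 0, and edgeR had 1 (Foxj1), 0, 0, 0 and 1 (Cyp11b1) genes at an unadjusted p under 0.05, against 19.8% of all tested genes. The part of these cells in the levels of Sult1a1, Papss2 and Sgk1 was not tested.

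By mean FPKM in WT ovaries, the order of the enzymes was Akr1c14, Akr1c18, Srd5a1, Srd5a3, Hsd11b2, Hsd11b1, Akr1b7 and Sult1e1. The ranges of neighbours overlapped down to Hsd11b2 and were separate from there on. In ERβKO ovaries Akr1c18 stood first by its mean, but its range held that of Akr1c14. Srd5a1, Hsd11b2 and Srd5a3 followed with ranges that overlapped, then Hsd11b1, then Akr1b7. Among all tested genes, Akr1c14 and Akr1c18 were at the percentiles 97.7 and 97.1 of mean FPKM, while Hsd11b1 was at 27.9 and Akr1b7 at 6.18.

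For each enzyme, the genes with the most similar log2 CPM over the 9 ovaries were sought, as a description without a test. They came from 14177 genes with a mean above 1 FPKM in either genotype. All genes of an ovary were measured in the same library, and the 9 ovaries span both genotypes. For Akr1c18 the most similar genes were Gpr107 (Pearson r = 0.94), Nap1l2 (r = 0.94) and Coa7 (r = 0.92). For Akr1c14 the first was Gm14305 (r = 0.92), for Srd5a1 it was Sf3b3 (r = 0.96) and for Srd5a3 it was Gm15536 (r = 0.94). For Hsd11b1 it was Gda (r = 0.98), for Hsd11b2 it was Pisd-ps1 (r = 0.93) and for Akr1b7 it was Prdm9 (r = 0.93). No shared function or control is read from these values.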

How the data were processed

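Polyadenylated RNA of whole ovaries was prepared by the authors with a stranded kit and sequenced as read pairs of 150 bp, mapped to GRCm38 with STAR. The deposited counts are the authors' raw fragment counts per gene from FeatureCounts, and whether strand was used is not stated. The deposited FPKM values, TPM values and coverage are the authors' StringTie values per gene, scaled per length and mapped fragments, to a common total per library and not for depth, respectively. TPM and coverage gave no result here. Replicates were not pooled.

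Counts were filtered with filterByExpr, normalized by TMM and tested with edgeR 4.0.16 in R 4.3.3 on all 9 libraries with genotype as the factor. DESeq2 1.42.0, the study's tool, was an alternative, as were limma 3.58.1 on log2 FPKM, other factors and filters, a replicate block, each library left out and the 2 WT libraries numbered above 200 left out. The last 2 libraries are WT replicates 4 and 5, while all ERβKO libraries are numbered below 200. Library number and genotype are thus partly confounded. The common biological coefficient of variation was 0.179. Ratios were compared by exact permutation tests over 126 splits. The 95% intervals of log2 fold changes are from edgeR and include the spread between ovaries. The floor for a count of 0 is 3 counts and covers counting error only. Scripts were tested on simulated data.

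The members and lists were chosen with earlier results of these data known. Genes named are the members, genes called and the 2 most abundant of each list, 6 luteal genes, and those most like each member; any other gene was named after its values were seen. Sts and Hsd17b8 had no entry in the tables used here. Sequences are RefSeq's (GRCm38.p6), matched by symbol for 7 of 8 members. Values of 1 gene of the estrogen inactivation list are not reported here.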

Additional observations from a re-analysis of the deposited data

Results flagged for a closer look

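In 70 groups of 4 or 5 ovaries checked for 1 value far from the rest, 10 held such a value. Values are FPKM. As these are skewed and the groups share ovaries, no rate expected by chance is set beside this count. A group with 1 value above 0 and the rest at 0, as for Sult1e1 and Cyp11b1 in ERβKO, is always flagged. Among the enzymes, Akr1c18 at 471 in ERβKO replicate 3 was far above the next value of 19.4. Sult1e1 was listed at 0.159 in the same ovary and at 0 in the other 3, which rests on 4 fragments and is too few for a level. Cyp11a1 was also high there, at 1088 against 680 in the next.

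Cyp11b1 was at 4.58 in WT replicate 3 and at 0.207 in ERβKO replicate 1, where the other 3 ERβKO ovaries were at 0. Cyp1b1 was low in WT replicate 2 at 35.4 and high in ERβKO replicate 4 at 78.6. Papss2 was high for its genotype in WT replicate 5 at 17.9 and low in ERβKO replicate 1 at 20.9. Sult1a1 was low for its genotype in ERβKO replicate 2 at 17.0.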

How the results depend on the processing

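The number of enzymes called was 0 under all 18 alternatives, and 15 of 121 alternative values for single enzymes turned direction. The number of genes called over the whole table was 287, with 802 by DESeq2, 191 by limma on log2(FPKM + 1), 51 without the 2 WT libraries numbered above 200, and 60 (without ERβKO replicate 2) to 912 (without WT replicate 2) when 1 ovary was left out. The cause was not tested.

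With the replicate number as a block 152 genes were called, and the log2 fold change was −1.01 for Akr1c18 and −0.055 for Hsd11b2. Papss2 (adjusted p = 0.0577) and Sgk1 (adjusted p = 0.113) were then no longer called by edgeR. Same-numbered ovaries deviated together with correlations of only −0.043 to 0.13, and 0 of 4 WT ovaries correlated best with its own number, so the numbers were not taken to pair the mice.

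Leaving out 1 ovary gave log2 fold changes of −2.78 to 2.09 for Akr1c18, −0.080 to 0.18 for Akr1c14, −0.13 to 0.022 for Srd5a3, −0.090 to 0.23 for Hsd11b2, −0.73 to 0.15 for Lhcgr and −0.043 to 0.095 for Tecr. It gave −2.23 to 0.59 for the log2 ratio of Akr1c18 to Hsd3b1 and −1.76 to 0.85 for that to Cyp11a1. Without the 2 WT libraries numbered above 200, the signs turned for Srd5a3 (0.034), Hsd11b1 (−0.060), Hsd11b2 (−0.097) and Lhcgr (0.48). With limma, the sign turned for Akr1c18 (−0.83 and −1.03) and Akr1a1 (0.0046 with either pseudocount). Akr1b7 had values under 13 alternatives only. With 3 to 21 fragments per library for Akr1b7 and 0 to 4 for Sult1e1, depth limits both.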
